A study of Mus musculus with 2 samples.

Results

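The genes of the peptides vasopressin (Avp) and oxytocin (Oxt) and of their brain receptors Avpr1a and Oxtr were described in single-nucleus RNA-sequencing of the hypothalamic preoptic area (POA). They are 4 of the 32285 genes in the count matrices and were taken by symbol. The other vasopressin receptor genes, Avpr1b and Avpr2, were counted beside them. The study compared neurons of the POA after ultrasound (US+) with neurons after sham treatment (US-). The tissue of 4 wild-type (WT) mice aged 6 to 9 weeks was pooled into 1 library for each group, and the study's methods name male and female C57BL/6NCrl mice. US+ tissue was taken about 1 h after ultrasound stimulation of the POA, and the labels give no other difference between the groups. Nuclei of both groups were sorted as positive for the DNA dye DAPI and for NeuN, an antigen of neuronal nuclei. The sort limits what the libraries can show, since RNA in the cytoplasm and in axons is lost and cells without NeuN are largely left out. Single mice could not be told apart within a pool, so no value could be tested across animals. All intervals below are exact 95% intervals and cover counting error only.

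Vasopressin and oxytocin are each cut from a precursor that also holds a carrier protein, neurophysin. Magnocellular neurons of the supraoptic and paraventricular nuclei, close to the POA, make them in bulk and send them to the posterior pituitary, from where vasopressin acts on water retention and blood vessels and oxytocin on birth and milk release. Smaller neurons make both peptides for release within the brain, and vasopressin is also made by neurons of the suprachiasmatic nucleus, the circadian pacemaker. Avpr1a and Oxtr encode receptors that couple to Gq proteins and phospholipase C, Avpr1b is known from the anterior pituitary, and Avpr2 acts through cyclic AMP in the kidney.

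Both peptide genes lie on chromosome 2 of GRCm38 with their ends facing each other. In GENCODE vM21, Avp is at chr2:130580620-130582554 on the minus strand and Oxt at chr2:130576173-130577054 on the plus strand, each with 3 exons, and 3565 bases separate the facing ends. Avpr1a is at chr10:122448499-122453452 on the plus strand and Oxtr at chr6:112473683-112489943 on the minus strand, each with 2 exons. The bases that code for the 2 short peptides are shown because they are where the gene products part. They lie in exon 1 at chr2:130582446-130582472 for Avp and chr2:130576267-130576293 for Oxt, are read 5′ to 3′, and have in capitals the 5 of 27 bases that differ.
Avp: tgctacTtccagaactgcccAAGAggc
Oxt: tgctacAtccagaactgcccCCTGggc

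Further along, the 2 transcripts share an unbroken run of 127 coding bases within the neurophysin part, shown because a read from inside it fits either gene. The run crosses from exon 1 to exon 2 in both genes and has no base that differs.
Avp and Oxt: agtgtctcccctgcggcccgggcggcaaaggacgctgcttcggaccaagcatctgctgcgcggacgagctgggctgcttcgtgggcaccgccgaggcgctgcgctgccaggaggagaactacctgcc
It ends 307 bases before the end of the annotated Avp transcript and 255 bases before the end of the Oxt transcript. A second shared run was 23 bases long, and 78.6% of the 378 coding bases set side by side were identical. The libraries were read from the ends of the transcripts. How many reads fell within the shared runs was not tested, so the effect of these runs on the Avp and Oxt counts is not known.

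The 250 bases before each start are shown because Avp and Oxt were at their highest in nuclei of the same cluster but largely not in the same nuclei, as described further on. They are RefSeq sequence on GRCm38.p6, at chr2:130582589-130582838 on the minus strand for Avp and chr2:130575919-130576168 on the plus strand for Oxt, with capitals for CACGTG (the E-box of circadian factors) in Avp and for TGACC or its other strand GGTCA (a nuclear receptor half-site) in Oxt.
Avp promoter: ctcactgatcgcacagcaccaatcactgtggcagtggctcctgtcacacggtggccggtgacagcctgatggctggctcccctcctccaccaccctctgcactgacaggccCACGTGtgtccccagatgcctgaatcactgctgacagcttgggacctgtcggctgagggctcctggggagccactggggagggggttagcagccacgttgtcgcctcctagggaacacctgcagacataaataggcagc
Oxt promoter: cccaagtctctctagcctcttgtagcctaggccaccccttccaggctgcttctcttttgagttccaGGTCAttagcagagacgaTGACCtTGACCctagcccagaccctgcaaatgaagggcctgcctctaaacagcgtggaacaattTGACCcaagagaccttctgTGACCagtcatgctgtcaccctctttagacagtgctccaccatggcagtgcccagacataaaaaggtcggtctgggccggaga
The Avp promoter held 1 copy of CACGTG, 139 bases before the start, and 6.02% of 32851 promoters searched over the same 250 bases held at least 1. It held no TGACC. The Oxt promoter held 5 copies of TGACC or GGTCA, a number reached by 0.0426% of the promoters, while 35.2% held at least 1. TGACG (a cyclic AMP response half-site) and its other strand were in neither, and 17.8% of promoters held it. These are matches of letters and no record of binding.

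The kept nuclei numbered 11663 in US- and 11899 in US+, with 99537709 and 86741549 UMIs, that is, counted RNA molecules. The median nucleus held 7334 UMIs in US- and 6440 in US+, and nuclei of under 1000 UMIs made up 3.12% and 10.8%. A single UMI was thus worth about 0.01 CPM (counts per 1000000 UMIs) in either library. The libraries also differed in their make-up. Striatal-type nuclei, from clusters led by genes of striatal projection neurons, made up 20.9% of US- and 5.23% of US+ nuclei, although the tissue is labelled as POA. A cluster of very shallow nuclei made up 4.78% and 16.9%, and 3 clusters led by markers of glia or endothelium 1.52% and 4.52%. The 2 libraries shared 29 barcodes, none of them in the peptide-rich nuclei described below.

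Over all kept nuclei, Avp and Oxt were higher in US+ and the receptors were not. Avp had 3488 UMIs in US-, 35.0 CPM (33.9 to 36.2), and 5842 in US+, 67.3 CPM (65.6 to 69.1), a ratio of 1.92 (1.84 to 2.005). Oxt had 2520 UMIs, 25.3 CPM (24.3 to 26.3), and 4482 UMIs, 51.7 CPM (50.2 to 53.2), a ratio of 2.04 (1.94 to 2.14). These 2 of the 4 genes were over 1.5-fold higher in US+, beside 7.99% of the 20194 genes with at least 50 UMIs. The intervals of the receptors' ratios held 1. Avpr1a had 87 UMIs in US-, 0.874 CPM (0.7001 to 1.08), and 64 in US+, 0.738 CPM (0.568 to 0.942), a ratio of 0.844 (0.602 to 1.18). Oxtr had 115 UMIs, 1.16 CPM (0.954 to 1.39), and 96 UMIs, 1.11 CPM (0.896 to 1.35), a ratio of 0.958 (0.723 to 1.27). Neither receptor was over 1.5-fold lower, as 3.31% of the genes were. With equal weight for each cluster in place of each UMI, the ratios were 1.12 for Avp, 1.10 for Oxt, 0.655 for Avpr1a and 1.19 for Oxtr. For the peptides, equal weight gave cluster 28 a large part of the mean. That cluster held 89.6% of the nuclei with 20 or more UMIs of either peptide in each library. Neither peptide was then past 1.5-fold and Avpr1a was over 1.5-fold lower, though Avpr1a had few UMIs in most clusters, such as 2 and 1 in cluster 22. In nuclei with under 10 UMIs of both peptides, the ratio within each cell class described below was 1.47 to 2.13 for Avp and 1.80 to 2.21 for Oxt. In nuclei with 20 or more UMIs of either peptide it was 1.02 and 0.939. Avpr2 had 14 and 13 UMIs and Avpr1b 3 and 1, too few for a ratio to be read. From a summed level alone, more nuclei that express a gene cannot be told apart from more RNA per nucleus, and the peptides were therefore followed by nucleus.

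Most nuclei had few or no Avp and Oxt UMIs, and a small number had 20 or more. Of the US- nuclei, 9921 had no Avp UMI, 1503 had 1, 191 had 2 or 3, 6 had 4 to 9 and 7 had 10 to 19, while 33 had 20 to 99 and 2 had 100 or more. In US+ these numbers were 8942, 2367, 495, 37, 14, 41 and 3. For Oxt, the US- numbers were 10400, 1045, 186, 10, 7, 13 and 2, and the US+ numbers 9349, 1987, 509, 25, 5, 22 and 2. These classes differ in width. In classes of equal width, 7 nuclei of US- had 10 to 19 Avp UMIs and 17 had 20 to 29, beside 14 and 11 in US+, and for Oxt the numbers were 7 and 5 in US- and 5 and 5 in US+. Of these 4 pairs, only Avp in US- had more nuclei in the higher class, so a separate high group was not shown for the others, and the threshold of 20 used below is a choice. The classes of 1 to 9 UMIs were fuller in US+ than in US-.

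**Figure D1:**
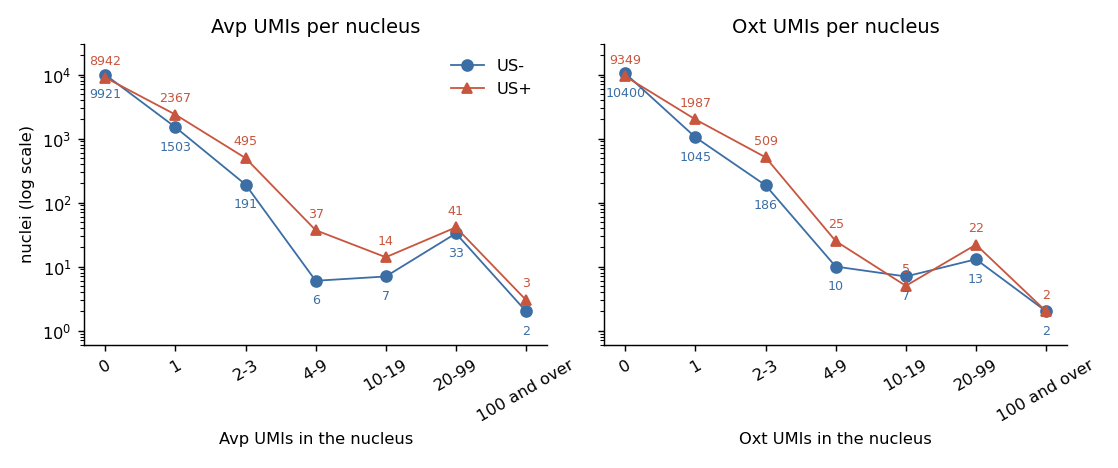
Number of nuclei (log scale) by the Avp UMIs (left) and Oxt UMIs (right) counted in the nucleus, for US- (blue circles) and US+ (red triangles), with the number beside each point. The classes differ in width, so that their heights are compared between the libraries and not with each other, and US+ lies above US- in the classes of 1 to 9 UMIs.

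By depth, nearly all nuclei with 20 or more UMIs of a peptide had over 2000 UMIs in all, as most nuclei did. Over all kept nuclei, 11040 of 11663 in US- and 9911 of 11899 in US+ had over 2000 UMIs. Among US- nuclei of under 1000 UMIs, 45 of 364 had an Avp UMI and the most in a nucleus was 2. Of those with 1000 to 2000 UMIs, 31 had an Avp UMI and the most was 3. All 35 US- nuclei with 20 or more Avp UMIs had over 2000 UMIs in all. In US+, 2 nuclei of under 1000 UMIs and 1 of 1000 to 2000 had 20 or more Avp UMIs, beside 41 of over 2000. No nucleus of up to 2000 UMIs had 20 or more Oxt UMIs in either library.

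A high expresser was first defined by at least 20 UMIs that were at least 1% of the nucleus' UMIs, which 3 nuclei in US- and 5 in US+ met. Since the median share in nuclei of 20 or more UMIs was 0.463% for Avp and 0.502% for Oxt in US-, and 0.488% and 0.389% in US+, the share left out most nuclei of 20 or more UMIs. The alternative with 20 UMIs and no share is therefore used here, and its nuclei are called Avp-rich, Oxt-rich or, together, peptide-rich. Their Avp and Oxt levels describe how they were chosen and are no finding. The US- library had 48 peptide-rich nuclei, 0.412% (0.304 to 0.545), of which 35 were Avp-rich and 15 Oxt-rich. The US+ library had 67, 0.563% (0.437 to 0.715), with 44 Avp-rich and 24 Oxt-rich. The intervals of the 2 shares overlapped. Just below the threshold were the 7 and 14 nuclei of 10 to 19 Avp UMIs and the 7 and 5 of 10 to 19 Oxt UMIs.

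Few of the peptide-rich nuclei were rich in both peptides, but the second peptide was above its level in nuclei with few peptide UMIs. In Avp-rich nuclei, Avp ranged from 20 to 130 UMIs with a median of 30 in US-, and from 20 to 116 with a median of 39.5 in US+. Oxt was at 0 in 21 of the 35 and in 23 of the 44. In Oxt-rich nuclei, Oxt ranged from 24 to 138 with a median of 53 in US-, and from 22 to 140 with a median of 43 in US+. Avp was at 0 in 5 of the 15 and in 11 of the 24. Only 3 nuclei reached 20 UMIs of both, 2 in US- with 30 Avp and 26 Oxt and with 23 Avp and 28 Oxt, and 1 in US+ with 71 Avp and 47 Oxt. The first of these had 14796 UMIs and lay in cluster 20, outside the magnocellular-like cluster, and the others lay inside it. Whether they were single nuclei or held the RNA of 2 was not tested.

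**Figure D2:**
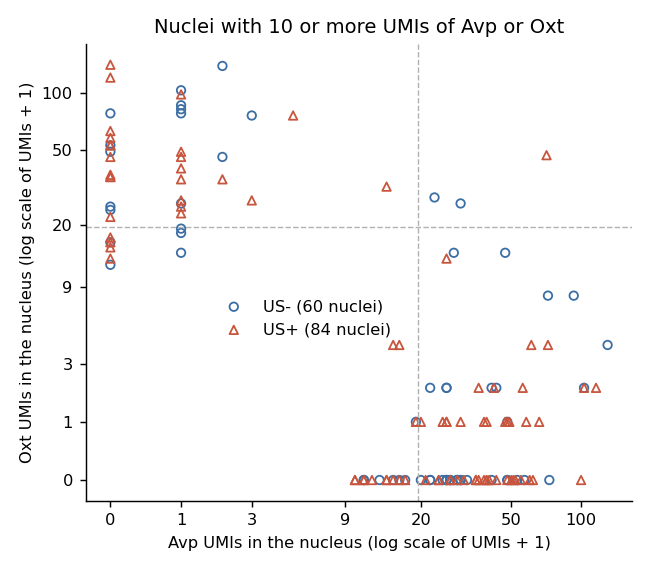
Avp UMIs against Oxt UMIs (both on a log scale of UMIs + 1) in each nucleus with 10 or more UMIs of either gene, 60 in US- (blue circles) and 84 in US+ (red triangles), with dashed lines at the threshold of 20. Most nuclei lie along one axis, and 3 lie beyond both lines.

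Both the nuclei with many and those with few UMIs contributed to the higher peptide levels of US+. Of the 35.0 and 67.3 CPM of Avp, nuclei of 20 or more Avp UMIs gave 14.6 CPM in US- and 23.3 CPM in US+, those of 10 to 19 gave 1.02 and 2.24 CPM, and those of under 10 gave 19.4 and 41.8 CPM. Of the 25.3 and 51.7 CPM of Oxt, the like parts were 9.22 and 14.1 CPM, 1.08 and 0.853 CPM, and 15.0 and 36.7 CPM. Nuclei of under 10 UMIs thus made up 69.3% of the difference in Avp and 82.3% of that in Oxt, and nuclei of 20 or more 26.96% and 18.6%. Nuclei of 20 or more Avp UMIs held 41.6% of all Avp UMIs in US- and 34.6% in US+, and the like nuclei of Oxt held 36.4% and 27.3%. Nuclei of under 10 UMIs of the gene held 55.4% and 62.1% of Avp and 59.3% and 71.0% of Oxt. In nuclei with under 10 UMIs of both peptides, 11603 in US- and 11815 in US+, Avp was 19.4 CPM (18.5 to 20.3) and 42.01 CPM (40.6 to 43.4), a ratio of 2.17 (2.05 to 2.29). Oxt in these low nuclei was 14.8 CPM (14.0 to 15.5) and 36.6 CPM (35.3 to 37.9), a ratio of 2.48 (2.33 to 2.64). The nuclei were split by the same UMIs, so these ratios are a description of the low nuclei.

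In these low nuclei the mean number of Avp UMIs differed less with depth than that of Gad2 and Sim1. In US- it was 0.140 per nucleus (0.104 to 0.184) below 1000 UMIs and 0.203 (0.165 to 0.248) at 20000 UMIs or more, while the median depth of these classes went from 673.5 to 24055. In US+ it was 0.281 (0.253 to 0.312) and 0.419 (0.357 to 0.489). Oxt went from 0.129 to 0.181 in US- and from 0.239 to 0.365 in US+. Gad2, a gene of GABA synthesis, went from 0.25 to 6.24 UMIs in US- and from 0.203 to 5.80 in US+ over the same classes, and Sim1 from 0.00549 to 0.197 and from 0.0110 to 0.630. Fth1, a ferritin subunit, went from 0.187 to 0.659 and from 0.329 to 0.938, and the mitochondrial mt-Co1 from 0.124 to 0.858 and from 0.206 to 1.02. The peptides were held under 10 UMIs in these nuclei and the other genes were not. Per UMI, the low nuclei of under 1000 UMIs had 201.6 Avp CPM in US- and 411.4 in US+, and those of over 2000 had 18.7 and 36.3.

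**Figure D3:**
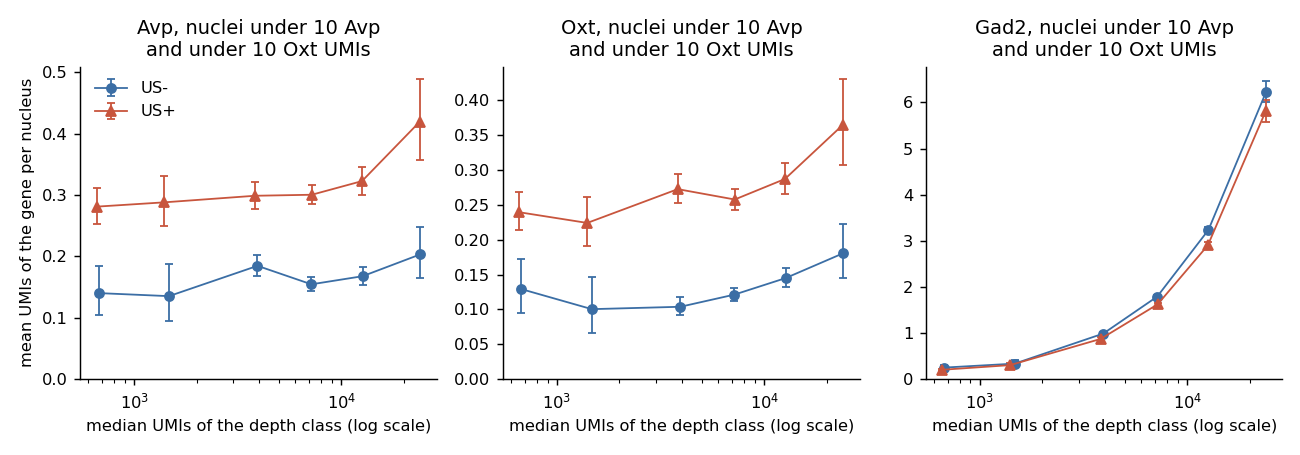
Mean UMIs per nucleus of Avp, Oxt and, for comparison, Gad2, against the median UMIs of 6 depth classes (log scale), in nuclei with under 10 UMIs of both peptides, for US- (blue circles) and US+ (red triangles). Bars are exact 95% Poisson intervals. Avp and Oxt stay near 0.1 to 0.4 UMIs at every depth with US+ above US-, while Gad2 goes from about 0.2 to about 6.

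The low nuclei had peptide UMIs in every cell class, the striatal-type one included, whose cells should lack both genes. An Avp UMI was found in 15.1% of the low striatal-type nuclei of US- and 21.7% of US+, and an Oxt UMI in 9.80% and 17.5%, at a median depth of 7299 and 7301 UMIs. In GABAergic nuclei the Avp shares were 14.4% and 24.8%, and the Oxt shares 10.7% and 21.3%, at 7561 and 7301 UMIs. In glutamatergic nuclei they were 15.0% and 25.2%, and 11.1% and 23.0%, at 7309 and 7473. The mean number of Avp UMIs in US- was 0.172 in striatal-type, 0.163 in GABAergic, 0.169 in glutamatergic, 0.153 in non-neuronal and 0.140 in shallow nuclei, although the shallow ones had a median of 829 UMIs. In US+ these means were 0.256, 0.314, 0.305, 0.297 and 0.289. In US-, the intervals of the CPM of striatal-type, GABAergic and glutamatergic low nuclei overlapped for both genes, so these classes were not set apart. Whether their counts came from free RNA or from expression was not tested. In US+, Avp was 30.3 CPM (25.7 to 35.3) in striatal-type and 37.4 CPM (35.7 to 39.1) in GABAergic low nuclei, with intervals that did not overlap. The GABAergic class included the 261 low nuclei of the suprachiasmatic-like cluster, described below, with 209 of its 1864 Avp UMIs. The class level without that cluster was not computed. Oxt in US+ was 28.5 CPM (24.2 to 33.5) in striatal-type, 31.8 CPM (30.3 to 33.4) in GABAergic and 34.2 CPM (31.7 to 36.8) in glutamatergic low nuclei, with intervals that overlapped. The ratio of US+ over US- was 1.47 (1.22 to 1.77) for Avp and 2.08 (1.69 to 2.54) for Oxt in the low striatal-type nuclei, so the difference between the libraries was present in nuclei that should lack the genes. Avp UMIs per Oxt UMI over the low nuclei numbered 1.31 (1.23 to 1.41) in US- and 1.15 (1.09 to 1.204) in US+, within a range of 1.16 to 1.49 over the classes of US- and 1.06 to 1.31 over those of US+. The summed level of marker genes over all nuclei was 86.7 CPM in US- and 148 CPM in US+ for oligodendrocytes, and 12.7 and 22.8 CPM for endothelial cells. It was 4.68 and 7.98 CPM for pericytes or fibroblasts and 1.84 and 2.24 CPM for ependymal cells or tanycytes. It differed less for astrocytes (229 and 218 CPM), oligodendrocyte precursors (741 and 751 CPM) and microglia (151 and 164 CPM). The mean mitochondrial share was 0.0786% in US- and 0.116% in US+. The part of these differences in the higher peptide counts of US+ was not tested.

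Among the clusters, the suprachiasmatic-like cluster 22, led by Vipr2, Lhx1 and Vip, stood above the level of all low nuclei for Avp. Its low nuclei had 0.571 Avp UMIs each in US- and 0.801 in US+, 107.9 CPM (79.6 to 143) and 136.6 CPM (119 to 156), against 0.143 and 0.284 Oxt UMIs. The low nuclei of the shallow cluster 0 were at 117 and 211 Avp CPM, so CPM alone did not single out cluster 22. Those shallow nuclei had 0.140 and 0.289 Avp UMIs each. Cluster 22 had 4.00 Avp UMIs per Oxt UMI (2.09 to 8.27) in US- and 2.82 (2.16 to 3.73) in US+. Both intervals lay above those over all low nuclei. Vasopressin is a known peptide of this nucleus. None of its nuclei was peptide-rich, but 6 of 267 in US+ had 10 to 19 Avp UMIs, and 0 of 84 in US- had, which allows a share of up to 3.57%.

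Most peptide-rich nuclei were found in a cluster where magnocellular genes were high. The nuclei were clustered without Avp, Oxt and the receptor genes among the features, and 43 of the 48 US- and 60 of the 67 US+ peptide-rich nuclei, 89.6% in both, fell in cluster 28, magnocellular-like by its markers. That cluster held 82 nuclei in US- and 129 in US+. In US-, 29 of its nuclei were Avp-rich, 13 Oxt-rich, 1 both, 10 had 10 to 19 UMIs of either and 29 had under 10 of both. In US+, the numbers were 38, 21, 1, 6 and 63. The low nuclei of the cluster had 0.172 Avp and 0.0345 Oxt UMIs each in US- and 0.524 and 0.302 in US+, at median depths of 5831 and 6911. This came to 25.98 Avp CPM (8.43 to 60.6) in US- and 75.7 Avp CPM (52.1 to 106) in US+. The US- interval held the 19.4 CPM of all low nuclei, and the US+ interval lay above their 42.01 CPM. Their Oxt level of 43.6 CPM (26.2 to 68.0) in US+ was not set apart from the 36.6 CPM of all low nuclei. Outside the cluster, peptide-rich nuclei were in clusters 13, 18, 20, 23 and 25 of US-, 1 each, and in US+ 3 in the shallow cluster 0, 3 in the deep cluster 18 and 1 in cluster 5.

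Genes other than Avp and Oxt did not choose the peptide-rich nuclei and can be read against the other nuclei of the same library. Among the 8650 genes with at least 20 UMIs in them, 8.07% were over 1.5-fold higher and 5.49% over 1.5-fold lower in both libraries. All 6 of the magnocellular markers with enough UMIs were higher (Sim1, Otp, Pou3f2, Pdyn, Caprin2 and Nos1). Of these, Nos1 was high mainly in the Oxt-rich nuclei, as described below. Sim1, a transcription factor needed for the paraventricular and supraoptic nuclei to form, was 477 CPM in peptide-rich and 10.0 CPM in other nuclei of US-, 47.7-fold (41.3 to 54.9), and 361 and 25.9 CPM in US+, 14.0-fold (12.2 to 15.9). It had a UMI in 92.2% of the peptide-rich nuclei. High Sim1 was not particular to them. By cluster, Sim1 was 284 CPM in cluster 17 and 172 CPM in cluster 14, beside 352 CPM in cluster 28. Clusters 14 and 17 held no peptide-rich nucleus. Otp, which acts in the same lineage as Sim1, was 65.4 against 1.51 CPM in US- and 68.4 against 5.23 CPM in US+. Caprin2, an RNA-binding protein known to act on vasopressin mRNA, was 475 against 25.3 CPM and 403 against 26.9 CPM. Of the other markers, Gng8 had no UMI in them and Creb3l1, a transcription factor of the Avp gene, had 13, in all 115 nuclei.

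Of the transcription factors of Avp and Oxt neurons, 7 of 8 were higher in both libraries. Beside Sim1, Otp and Pou3f2 these were Arnt2, the partner of Sim1, Magel2, a gene of the Prader-Willi region, Esr2, the estrogen receptor beta, and Nr4a1, an activity-induced factor. The eighth, Rora, was 704 against 973 CPM in US- and 831 against 965 CPM in US+. The median ratio of the list was 5.46 in US- and 3.497 in US+, against 1.06 and 1.04 over all genes tested. Of the genes for peptide processing and secretion, 3 of 14 were higher in both, Pcsk1, a convertase that cuts the precursors, Pam, which amidates the end of both peptides, and Cadps2, a factor of vesicle release. Pcsk1 was 277 against 20.4 CPM in US- and 219 against 22.7 CPM in US+, and Pam was 638 against 266 and 681 against 313. Pcsk2 was 281 against 389 CPM and 384 against 443 CPM. The granins Scg2 and Chga were lower in both, Scg2 at 53.8 against 102 and 79.5 against 173 CPM.

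Of the transmitter genes, the glutamatergic marker was higher and the GABA synthesis genes were lower in peptide-rich nuclei. Slc17a6, the vesicular glutamate transporter, was 65.4 against 22.5 CPM in US- and 75.3 against 32.7 CPM in US+. Gad1 and Gad2 were lower in both libraries, with Gad2 at 42.3 against 246 CPM and 76.7 against 224 CPM. Of the co-released peptides, 3 had enough UMIs. Pdyn, the dynorphin precursor, was higher with 30.8 against 6.91 and 14.0 against 5.84 CPM, Nts was lower, and Gal was 23.1 against 15.3 and 27.9 against 37.1 CPM. Of 15 genes of Gq signalling none was higher in both and 3, Itpr1, Prkcb and Camk2a, were lower. Of 4 osmosensing and membrane genes, Trpv2, a cation channel, was higher, with 51.9 against 16.9 and 43.2 against 24.1 CPM. The channel genes Trpv1 and Aqp4 had no UMI in peptide-rich nuclei and Trpv4 had 1. The single suprachiasmatic marker with enough UMIs, Zfhx3, was lower in both.

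Of all genes with at least 100 UMIs in peptide-rich nuclei, the 8 with the highest ratio were Sim1, Ebf3, Caprin2, Plekhg1, Fign, Gm43122, Angpt1 and Gem. Ebf3, a transcription factor, had 156 against 1.46 CPM in US- and 135 against 1.24 CPM in US+, 106-fold (80.0 to 141) and 109-fold (81.8 to 145). It had a UMI in 53.9% of the peptide-rich and 0.601% of the other nuclei. Angpt1, an angiopoietin, was 238 against 19.2 CPM and 359 against 31.1 CPM, and was also among the genes that led cluster 17. Gem, a small GTPase that inhibits calcium channels, was 88.5 against 3.96 CPM and 144 against 7.18 CPM.

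Avp-rich and Oxt-rich nuclei also differed from each other, a comparison added after seeing the data, as was the choice of the genes named for it. The 3 nuclei rich in both were left out, which left 33 Avp-rich and 13 Oxt-rich nuclei in US- and 43 and 23 in US+. Of 4607 genes with at least 50 UMIs in them, 21 (0.456%) were over 3-fold higher in the Avp-rich nuclei of both libraries and 26 (0.564%) in the Oxt-rich nuclei of both. Ebf3 was 249 CPM in Avp-rich and 0 CPM in Oxt-rich nuclei of US-, with 81 and 0 UMIs, and 220 and 10.5 CPM in US+, with 93 and 3 UMIs. It had a UMI in 77.6% of Avp-rich and 5.56% of Oxt-rich nuclei. Dlk1, a membrane protein of the Notch family, was 110 and 5.72 CPM in US-, and 118 and 10.5 CPM in US+. Bcl11b, a zinc-finger transcription factor, was 104 and 11.4 CPM, and 66.2 and 7.02 CPM. Maml3, a co-activator of Notch signalling, was 1099 and 132 CPM, and 1202 and 183 CPM, and Trpc5, a cation channel, 924 and 126 CPM, and 728 and 214 CPM.

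In the other direction, Oxt-rich nuclei had more of Nos1, the neuronal nitric oxide synthase, at 361 CPM against 39.9 CPM in the Avp-rich nuclei of US-, and 232 against 21.3 CPM in US+. Nos1 had a UMI in 97.2% of Oxt-rich and 19.7% of Avp-rich nuclei, and was 28.2 CPM over all nuclei of both libraries. Galnt14, a glycosyltransferase, was 406 against 15.3 CPM and 200.1 against 9.46 CPM, 0.0432-fold (0.0193 to 0.0845) in Avp-rich over Oxt-rich nuclei of both libraries. Grin2a, a subunit of NMDA receptors, was 1483 against 181 CPM and 1064 against 89.9 CPM. Prlr, the prolactin receptor, was 68.7 against 12.3 CPM and 94.8 against 30.7 CPM, with 39 UMIs in Oxt-rich nuclei in all. Thsd7b was 893 against 33.8 CPM and 649 against 125 CPM. Esr2 had 33 UMIs in all peptide-rich nuclei, too few for the count of genes. It was 51.5 against 6.14 CPM in US- and 66.7 against 7.10 CPM in US+. In nuclei that were not peptide-rich, Esr2 was 3.02 CPM in US- and 6.21 CPM in US+. Sim1, Otp, Slc17a6 and Pcsk1 were not among the genes over 3-fold apart. Sim1 was 442 in Avp-rich against 555 CPM in Oxt-rich nuclei of US-, and 388 against 330 CPM in US+. The median depth was 8144 UMIs in Avp-rich and 12323 in Oxt-rich nuclei of US-, and 9195 and 10043 in US+.

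**Figure D4:**
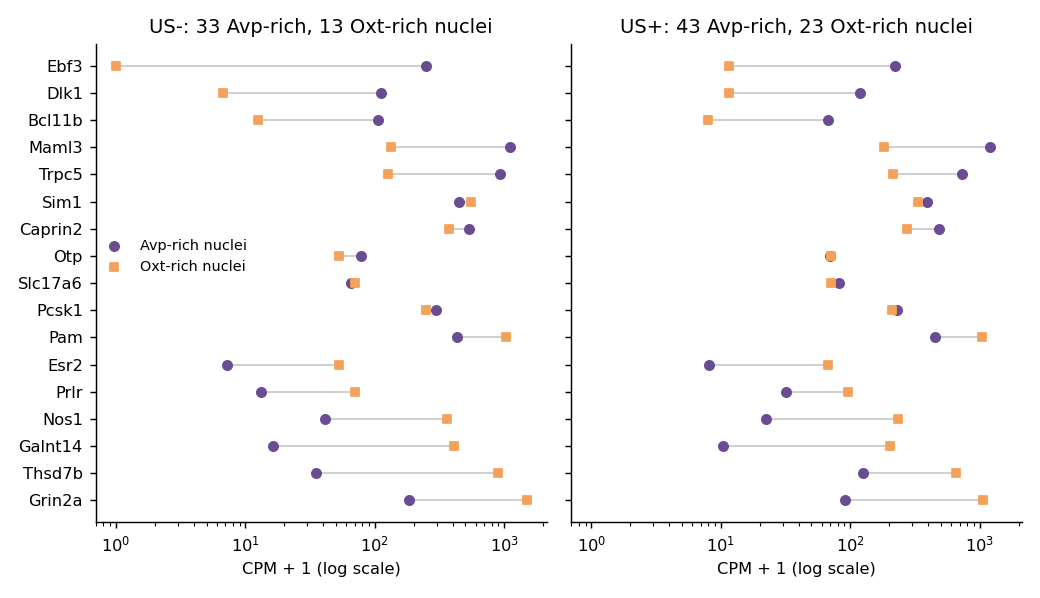
CPM + 1 (log scale) of 17 genes in Avp-rich (purple circles) and Oxt-rich nuclei (orange squares) of US- (left) and US+ (right), each point the summed UMIs of these nuclei. Ebf3, Dlk1, Bcl11b, Maml3 and Trpc5 are higher in Avp-rich and Nos1, Galnt14, Grin2a, Thsd7b, Prlr and Esr2 in Oxt-rich nuclei of both libraries, and Sim1, Otp, Slc17a6 and Pcsk1 lie close together.

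Early genes that neurons induce when active (Fos, Fosb, Nr4a1, Egr1 and Dusp1, summed) were added to this comparison after seeing the data. In Avp-rich nuclei they had 49 UMIs in US-, 150 CPM (111 to 199), and 63 in US+, 149 CPM (115 to 191), a ratio of 0.991 (0.671 to 1.47). In Oxt-rich nuclei they had 2 UMIs in US-, both in 1 of 13 nuclei, and 32 UMIs in US+, in 11 of 23 nuclei with at most 7 in a nucleus. That is 11.4 CPM (1.39 to 41.4) and 112 CPM (76.8 to 159), a ratio of 9.81 (2.50 to 84.5). In all other nuclei they were 25.4 CPM (24.5 to 26.5) and 67.2 CPM (65.5 to 69.0), a ratio of 2.64 (2.52 to 2.77). The interval of the Oxt-rich ratio held that of the other nuclei, and the interval of the Avp-rich ratio did not reach it. With 1 pool of mice per group, these values compare the 2 libraries and not the treatments.

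Receptor RNA was sparse, and no nucleus had more than 3 UMIs of Oxtr or 2 of Avpr1a. Avpr1a was seen in 85 nuclei of US-, 0.729% (0.583 to 0.9004), and 62 of US+, 0.521% (0.400 to 0.667), and Oxtr in 109, 0.935% (0.768 to 1.13), and 92, 0.773% (0.624 to 0.947). Thinned to 2000 UMIs per nucleus, with 623 and 1987 shallower nuclei left out, the shares were 0.163% and 0.131% for Avpr1a and 0.190% and 0.161% for Oxtr. Both receptors were seen in 3 nuclei of US- and 2 of US+.

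Among the 3 classes compared, GABAergic nuclei had the highest level of both receptors in US-. Avpr1a was 1.28 CPM (1.00 to 1.63) in GABAergic, 0.387 CPM (0.142 to 0.842) in glutamatergic and 0.294 CPM (0.108 to 0.639) in striatal-type nuclei of US-, from 69, 6 and 6 UMIs. Outside these classes it was 4.48 CPM (0.925 to 13.1) in the shallow and 2.43 CPM (0.295 to 8.79) in the non-neuronal nuclei, from 3 and 2 UMIs. GABAergic nuclei were thus 3.32-fold (1.45 to 9.36) above glutamatergic and 4.37-fold (1.91 to 12.3) above striatal-type ones. In US+ it was 0.842 CPM (0.607 to 1.14), 0.577 CPM (0.298 to 1.01) and 0.381 CPM (0.0461 to 1.38), from 42, 12 and 2 UMIs. Here the ratios of 1.46 (0.754 to 3.04) and 2.21 (0.575 to 18.9) had intervals that held 1, so an order was not detectable at this depth. Without the 2 clusters of highest CPM, the ratio over glutamatergic nuclei was 2.45 in US- and 1.18 in US+.

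Oxtr was 1.64 CPM (1.31 to 2.02) in GABAergic, 0.774 CPM (0.400 to 1.35) in glutamatergic and 0.441 CPM (0.201 to 0.836) in striatal-type nuclei of US-, from 88, 12 and 9 UMIs. GABAergic nuclei were 2.12-fold (1.15 to 4.25) above glutamatergic and 3.72-fold (1.87 to 8.40) above striatal-type ones. In US+ it was 1.34 CPM (1.04 to 1.71), 0.577 CPM (0.298 to 1.01) and 0.761 CPM (0.207 to 1.95), from 67, 12 and 4 UMIs, with ratios of 2.33 (1.25 to 4.73) and 1.76 (0.658 to 6.66). The US+ ratio over glutamatergic nuclei was 1.41 with classes set from each nucleus and 4.33 with equal weight for each cluster. Without the 2 clusters of highest CPM, the ratio over glutamatergic nuclei was 1.46 in US- and 1.88 in US+. Over striatal-type nuclei it was then 2.56 and 1.42, and no intervals were computed for these ratios. With all clusters kept, GABAergic nuclei were above glutamatergic ones in both libraries, and above striatal-type ones beyond counting error in US-. Glutamatergic and striatal-type nuclei were not set apart for either receptor in either library. With the share of nuclei as the measure, an Oxtr UMI was seen in 1.36% of GABAergic, 0.587% of glutamatergic and 0.369% of striatal-type nuclei of US-, and in 1.09%, 0.445% and 0.643% of US+, at median depths that lay between 7299 and 7562 UMIs. The classes were set from clusters with limits chosen after seeing the data, and the shallow cluster (4.78% and 16.9% of nuclei) and the deep cluster 18 (2.71% and 2.10%) were kept out of them.

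By cluster, the receptor levels were led by GABAergic clusters of the Sox6 and Lhx6 kind. Oxtr was highest in cluster 29, led by Npy, Sst, Nos1 and Moxd1, with 15 UMIs in 166 nuclei, 11.7 CPM (6.53 to 19.3), and its interval did not reach that of the second. The 2 libraries gave 7 UMIs, 9.32 CPM (3.75 to 19.2), and 8 UMIs, 15.0 CPM (6.47 to 29.5). Cluster 16 came second with 36 UMIs, 4.39 CPM (3.07 to 6.07), of which 28 were from US- and 8 from US+. It was led by Meis1, Pde3a, Npas1 and Sox6. After it came the shallow cluster 0 with 8 UMIs and cluster 5 with 20 UMIs, 1.91 CPM (1.16 to 2.94), whose intervals overlapped, and so did those of each pair of neighbours from there on. Cluster 29 held 7.11% of the Oxtr UMIs and 0.690% of all UMIs.

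Avpr1a was highest in cluster 16, with 31 UMIs in 31 of 621 nuclei, 3.78 CPM (2.57 to 5.36), where US- gave 3.91 CPM and US+ gave 3.44 CPM. This cluster held 20.53% of the Avpr1a UMIs and 4.405% of all UMIs. Next were cluster 30 with 3 UMIs, the shallow cluster 0 with 8 and cluster 5 with 23 UMIs, 2.19 CPM (1.39 to 3.29), and all neighbours in this order overlapped in their intervals. In US- alone, cluster 22 with 2 UMIs and cluster 0 with 3 lay above cluster 16 with 23, within their intervals. Cluster 29, the highest for Oxtr, was at 0.778 CPM for Avpr1a from 1 UMI. Over the 33 clusters, 8 had no Avpr1a and 6 no Oxtr UMI.

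**Figure D5:**
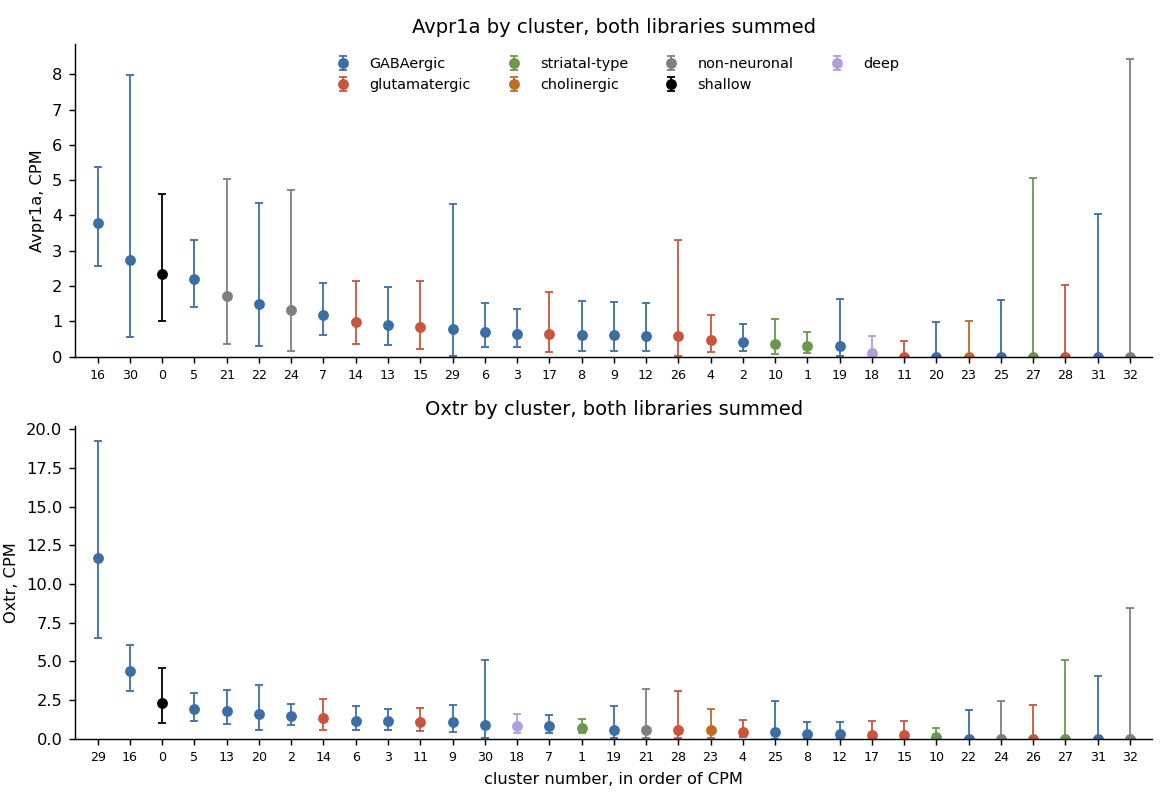
CPM of Avpr1a (top) and Oxtr (bottom) in the 33 clusters, in order of CPM with the cluster number on the axis, both libraries summed, coloured by class. Bars are exact 95% Poisson intervals, and Oxtr in cluster 29 at 11.7 CPM is the single value whose interval does not reach the next one.

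Cluster 16 and cluster 5 had features in common beside the receptors. Sox6 was 736 CPM in cluster 16, 954 in cluster 5 and 2223 in cluster 29, against 163 CPM over all nuclei, and Lhx6, a factor of GABAergic neurons born in the medial ganglionic eminence, was 64.8, 115 and 245 CPM, against 23.6 CPM. Npas1 was 64.7 CPM in cluster 16 and below the level of all nuclei, 7.31 CPM, in both others. Sst and Npy, peptides of inhibitory neurons, were 857 and 548 CPM in cluster 29. Such genes shaped the clusters, so they say only what kind of neuron each one held. At a resolution of 0.4 the clusters were joined in 1 of 1839 nuclei that ranked first for both receptors, with 3.54 CPM of Oxtr and 2.74 CPM of Avpr1a. At a resolution of 1.2, a cluster of 64 nuclei led by Prox1 and Sox6 ranked first for Avpr1a, with 2 UMIs and 3.93 CPM, above the one that held the 621 nuclei of cluster 16 at 3.77 CPM. It ranked second for Oxtr, with 3 UMIs and 5.90 CPM.

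In the peptide-rich nuclei themselves, receptor levels near those over all nuclei were not detectable at this depth. They had 0 Avpr1a UMIs in both libraries and 1 Oxtr UMI in US- and 0 in US+. The 1 UMI was 1.92 CPM, beside 1.16 CPM over all nuclei of US-. For a count of 0, the limit of 3 counts is 5.77 CPM in US- and 4.19 CPM in US+. The exact interval of 0 UMIs in these nuclei reaches 7.09 CPM in US- and 5.15 CPM in US+. An Avpr1a level like that of cluster 16, 3.91 and 3.44 CPM, was thus not detectable in either library alone. The limit was not computed over both libraries summed. Over both libraries, the whole magnocellular-like cluster had no Avpr1a UMI, with an interval of 0 to 2.02 CPM that lay below that of cluster 16 (2.57 to 5.36). It had 1 Oxtr UMI, 0.549 CPM (0.0139 to 3.06). The suprachiasmatic-like cluster had 3 Avpr1a UMIs and no Oxtr UMI.

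Across the 33 clusters, the genes most like Oxtr by Pearson's r of log2(CPM + 1) among the genes with at least 500 UMIs were Tbc1d30 (0.785), Vstm2b (0.706), Pfkp (0.675), L3mbtl4 (0.673) and Mpped1 (0.666). Those most like Avpr1a were Smim20 (0.558), Robo3 (0.550), Gng13 (0.546), Tenm3 (0.540) and Corin (0.533). The 2 receptors had an r of 0.373 with each other. The clusters share libraries and depth, and with few receptor UMIs in most of them these values only describe the order found.

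The fixed lists of genes around the peptides and receptors were also read between the libraries. Of their 63 members with at least 50 UMIs, 21 were over 1.5-fold higher and 2 over 1.5-fold lower in US+, beside 7.99% and 3.31% of all genes, and outside striatal-type clusters 11 and 0 of 62, beside 6.24% and 2.37%. With equal weight for each cluster 5 were over 1.5-fold higher (Cck, Crh, Nr4a1, Rgs2 and Trh) and 1 lower (Trpv1), beside 4.8% and 4.73% of all genes. The median log2 ratio was 0.19 over the lists and 0.06 over all genes. All values of this comparison are levels over all kept nuclei and not those of the peptide neurons.

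Co-released peptides and transcription factors held most of the higher genes. Of 9 peptides measured, 6 were higher. Trh, the thyrotropin-releasing hormone, was 5.64 CPM in US- and 18.4 CPM in US+, a ratio of 3.26 (2.96 to 3.598), and Gal, galanin, was 15.3 and 37.1 CPM, a ratio of 2.42 (2.28 to 2.58). The others were Cck, Crh, Nts and Adcyap1, with ratios from 1.60 to 2.02. With equal weight for each cluster, Trh at 1.95, Cck at 1.81 and Crh at 2.13 stayed past 1.5-fold, and Gal at 1.48, Nts at 1.45 and Adcyap1 at 1.32 did not. Nts was 1.44 outside striatal-type clusters. Pdyn, at 7.03 and 5.90 CPM, and Penk, at 57.7 and 56.2 CPM, were not past 1.5-fold. Of 10 transcription factors, 6 were higher (Sim1, Otp, Nr4a1, Esr2, Fezf2 and Magel2). Otp was 1.85 and 5.75 CPM, a ratio of 3.11 (2.62 to 3.71), and Sim1 12.4 and 28.6 CPM, a ratio of 2.30 (2.15 to 2.47). With equal weight for each cluster the ratios of Otp and Sim1 were 1.18 and 0.888, those of Esr2, Fezf2 and Magel2 lay between 1.05 and 1.496, and Nr4a1 was at 2.56. Outside striatal-type clusters Nr4a1, Fezf2 and Magel2, at 1.28 to 1.47, were not past 1.5-fold. Rora, at 972 and 964 CPM, and Pou3f2, at 12.5 and 10.6 CPM, were not past 1.5-fold.

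Of the 15 genes of peptide processing and secretion, 4 were higher (Scg2, Pcsk1n, Cadps2 and Cd38). Scg2, secretogranin, was 102 and 172 CPM, a ratio of 1.69 (1.65 to 1.73), and Cd38, which acts in oxytocin release, was 0.683 and 1.13 CPM, a ratio of 1.65 (1.201 to 2.29). With equal weight for each cluster none of the 4 was past 1.5-fold, with Scg2 at 1.44, Pcsk1n at 1.25 and Cadps2 at 1.15, and Cd38 at 0.758 was on the other side of 1. Outside striatal-type clusters Cd38 was 1.41, Pcsk1n 1.48 and Cadps2 1.30, and Scg2, at 1.55, stayed past 1.5-fold. Cadps, at 858 and 889 CPM, and Lnpep, the peptidase that degrades both peptides, at 93.8 and 97.6 CPM, had the lowest ratios.

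Of the 21 genes of Gq signalling, 2 were higher and 1 lower. Rgs2, which ends signals of Gq and is itself induced by activity, was 11.9 CPM in US- and 33.8 CPM in US+, a ratio of 2.83 (2.65 to 3.03), and its ratio was 3.70 with equal weight for each cluster. Itpr2, a calcium release channel, was 8.77 and 16.6 CPM, a ratio of 1.89 (1.74 to 2.06), which was 1.03 with equal weight. Rgs14 was 4.79 and 2.56 CPM, a ratio of 0.534 (0.453 to 0.628), and 0.849 outside striatal-type clusters. Itpr1 was 151 and 114 CPM, a ratio of 0.754 (0.735 to 0.774). Gnaq, the Gq subunit itself, was 274 and 279 CPM.

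Of the 8 osmosensing and membrane genes, 3 were higher and 1, the channel gene Trpv1 at 0.362 and 0.208 CPM, lower. Scn7a, a sodium sensor, was 6.86 and 11.6 CPM, a ratio of 1.69 (1.53 to 1.86), and Slc12a1 was 11.3 and 17.9 CPM, a ratio of 1.58 (1.46 to 1.71). Aqp4, a water channel of astrocytes, was the third. With equal weight for each cluster these were 1.20035, 1.35 and 0.811, and Trpv1 was 0.583. The chloride transporters Slc12a2, at 40.4 and 40.5 CPM, and Slc12a5, at 128 and 120.3 CPM, were not past 1.5-fold. Outside striatal-type clusters, none of the 7 genes with enough UMIs was past 1.5-fold in either direction.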

How the data were processed

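Single-nucleus RNA-sequencing was analysed for 2 libraries, US- and US+, with 1 library per group. The authors sorted nuclei positive for NeuN and DAPI, made droplet libraries that read transcript ends with unique molecular identifiers, and deposited a matrix of counts (UMIs) per gene and nucleus, made with Cell Ranger 6.1.1 on the mouse genome mm10 per the labels and brought to the depth of the less saturated library per the study's methods. Nuclei with 200 to 7500 genes and at most 5% mitochondrial UMIs were kept, as in the study, which left 11663 of 11725 and 11899 of 12075 barcodes. The upper bound on genes was the study's step against doublets. No doublet caller was run, and leaving out the deepest 10% of nuclei was tried instead. Nuclei were clustered with Seurat 5.3.0 (R 4.3.3) on 3968 variable features with immediate-early genes and the vasopressin and oxytocin genes left out, 40 principal components and a resolution of 0.8, which gave 33 clusters. Clusters were classed as striatal-type with at least 5 of 12 striatal markers over 2-fold, as glutamatergic where vesicular glutamate transporters exceeded Gad1 and Slc32a1 in CPM, and otherwise as GABAergic. Clusters below 0.333 or above 2 times the libraries' median depth, and cholinergic and glial or endothelial ones, were kept apart. These limits were set after seeing the data, so differences from the study's own cell types may come from the rebuilt names.

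Levels are UMIs summed over nuclei in CPM. Intervals are exact at 95% (Poisson for levels, Clopper-Pearson for shares, conditional binomial for ratios), and a count of 0 is given an upper limit of 3 counts. With 1 library per group there was no test, and a gene was counted as higher or lower past 1.5-fold, among genes with at least 50 UMIs, or 20 UMIs within peptide-rich nuclei. Named genes were the vasopressin and oxytocin genes, in each list the 2 highest and the 2 lowest ratios among members of 100 UMIs or more, the list members with 20 UMIs in peptide-rich nuclei, the 8 genes highest there, the 5 most like each receptor over clusters, and at most 5 genes to identify a cluster. Genes outside this rule, among them those set apart in Avp-rich and Oxt-rich nuclei, were chosen after their values were seen. The genes, lists and tests were chosen with earlier results of these data known. Sequences were read from GENCODE vM21 and RefSeq (GRCm38.p6). Python 3.11.15 with numpy 2.4.6, scipy 1.17.1, pandas 2.3.3 and matplotlib 3.10.9 was used, and edgeR 4.0.16 only for TMM scaling. Count summaries were tested on simulated data. Alternatives were other filters, scalings, thresholds, resolutions, thinning depths and sets of nuclei, some of them added after seeing the data.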

Additional observations from a re-analysis of the deposited data

Results flagged for a closer look

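The filter on nuclei left out 62 barcodes of US- and 176 of US+, most of them with over 7500 genes, and these held peptide UMIs above the limit that a count of 0 allows. Avp had 54 UMIs in the barcodes left out of US-, 22.4 CPM (16.8 to 29.2), and 416 in those of US+, 50.2 CPM (45.5 to 55.3). Oxt had 9 UMIs, 3.73 CPM (1.71 to 7.09), and 237 UMIs, 28.6 CPM (25.1 to 32.5). Of these barcodes, 1 in US- and 5 in US+ had 20 or more Avp UMIs, and 0 and 1 had as many Oxt UMIs. The receptors were above the limit in US+, with 5 Avpr1a UMIs, 0.603 CPM, and 8 Oxtr UMIs, 0.965 CPM. Whether a barcode held more than 1 nucleus was not tested.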

How the results depend on the processing

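The ratio of US+ over US- stayed above 1 for both peptides under every alternative run. For Avp (1.92) it was 1.82 with a stricter filter (1000 UMIs or more, mitochondrial share up to 1%), 2.58 as mean UMIs per 10000, 1.84 with TMM, 2.17 without nuclei of 10 or more peptide UMIs, 1.12 with equal weight for each cluster, 1.80 outside striatal-type clusters and 1.77 over 2000 UMIs. For Oxt (2.04) it was 2.26 without the deepest 10% of nuclei, 2.93 as mean UMIs per 10000, 2.48 without nuclei of 10 or more peptide UMIs, 1.10 with equal weight, 1.88 outside striatal-type clusters and 1.91 over 2000 UMIs. For Oxtr (0.958) it was 1.40 as mean UMIs per 10000 and 1.19 with equal weight, on the other side of 1, and the interval of the main value held 1. The cause of these shifts was not tested.

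High expressers at 20 UMIs and 1% (3 in US-, 5 in US+) numbered 48 and 67 with no share, 3 in US+ under the stricter filter and 2 in US+ at 50 UMIs and 1%. Nuclei of at least 50 UMIs with no share numbered 15 and 23. Avp UMIs per Oxt UMI went from 1.39 and 1.30 without the high expressers to 1.31 and 1.15 without nuclei of 10 or more. Thinned to 1000 UMIs, an Avpr1a UMI was in 0.0620% and 0.0565% of nuclei and an Oxtr UMI in 0.0974% and 0.0848%, and at 5000 UMIs these were 0.397%, 0.334%, 0.689% and 0.441%, as thinning to fewer UMIs must lower them. The Oxtr level of the highest cluster (11.7 CPM) was 3.54 CPM at a resolution of 0.4, which joined it to others. At a resolution of 1.2 the highest cluster for Avpr1a was another one, of 64 nuclei with 2 UMIs and 3.93 CPM. List members over 1.5-fold numbered 11 higher and 0 lower outside striatal-type clusters, and 5 higher and 1 lower with equal weight. GABAergic nuclei were above glutamatergic and striatal-type ones under all alternatives for both receptors, from 1.18-fold to 6.26-fold. In all, 35 values moved and 117 did not. Receptor levels by class were not run without the filter on nuclei, since clusters cover kept nuclei only.

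No paired analysis was possible because each group had 1 library, which leaves a single pair. A single UMI was worth about 0.01 CPM, so receptor levels rest on few UMIs per cluster, and counting intervals do not hold the spread between mice.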
